A study of Mus musculus with 6 samples.

Results

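Hyaluronan synthesis and binding genes are represented here by 4 genes, Has1, Has2, Ugdh and Tnfaip6, out of the 149 genes in the table of changed genes that the authors deposited. They were found by symbol in that table, and all 4 were there. The table lists only genes that differed in the authors' own test between hearts of mice given trimethylamine N-oxide (TMAO) before and during ischaemia-reperfusion (TMAO+IR) and hearts with ischaemia-reperfusion alone (IR). The members were therefore chosen on the difference described below, and that difference is given as a description without a test.

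Hyaluronan is a long, unsulfated polysaccharide of the extracellular matrix, made of alternating glucuronic acid and N-acetylglucosamine units. It is built at the plasma membrane by hyaluronan synthases, which use UDP-glucuronate and UDP-N-acetylglucosamine and push the growing chain out of the cell. Ugdh encodes UDP-glucose dehydrogenase, which makes the UDP-glucuronate. Tnfaip6 encodes TSG-6, a secreted protein that binds hyaluronan and transfers heavy chains of inter-alpha-inhibitor onto it, and that is induced by inflammatory cytokines. In the injured heart hyaluronan is known as part of the provisional matrix of the infarct, and fibroblasts are among the cells that make it.

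All mice were male C57BL/6 animals of wild-type genotype. In both groups a ligature closed the left anterior descending coronary artery for 45 min, and the heart was then reperfused for 24 h. The 3 TMAO+IR libraries came from mice whose drinking water held 0.12% TMAO for 4 weeks before the operation and during it. The 3 IR libraries came from mice with the same operation, and RNA was taken from the reperfused area in both groups. Hearts without ischaemia-reperfusion were not analysed here, and the sources used here do not give the age of the mice.

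Recovered depths ranged from 18370770 to 21533879 fragments in the TMAO+IR libraries and from 20681543 to 22441959 in the IR libraries. The listed genes took 0.678% to 1.08% of the fragments in TMAO+IR libraries and 0.330% to 0.505% in IR libraries. Of the 149 genes, 122 were higher in TMAO+IR. Among these 122, TMAO+IR replicate 3 was the lowest TMAO+IR library in 97 genes, and IR replicate 2 was the highest IR library in 88 genes. Of the 92 cell type markers checked, 6 were in the table (Ackr1, Myh7, Mmp8, Slfn4, Ccr2 and Chil3). All 6 were higher in TMAO+IR, as were 81.9% of the genes in the table. The table holds 1.17% of the about 12700 genes implied to have been tested. The markers were chosen with earlier results of these data known, so nothing is read from this count. Of 11 markers of heart muscle cells, only Myh7 was listed, at 27.5 to 56.5 FPKM in TMAO+IR and 6.29 to 12.5 FPKM in IR. The other 10 were not in the table, and Myh7 alone does not give the share of these cells. FPKM are fragment counts scaled to transcript length and to the depth of the library. Other markers of the tissue were not analysed here.

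The promoter windows of the members are shown as a description of the genes, and shared regulation was not tested. Windows for Has1, Ugdh and Tnfaip6 were taken from RefSeq on GRCm38.p6. Each runs from 250 bases before the RefSeq start to 50 bases after it, and Has2 is named without one. In the GENCODE annotation given below, these genes begin upstream of the RefSeq starts but within the windows. They begin at 17855205 (Has1), 65435949 (Ugdh) and 52038009 (Tnfaip6). Motif distances count from the RefSeq start only, and some sites of Ugdh and Tnfaip6 lie inside the GENCODE gene. The Has1 window is chr17:17855139-17855438 on the minus strand, the Ugdh window chr5:65435793-65436092 on the minus strand, and the Tnfaip6 window chr2:52037863-52038162 on the plus strand. Capitals mark every match, on either strand, to the motifs that follow them.
Has1: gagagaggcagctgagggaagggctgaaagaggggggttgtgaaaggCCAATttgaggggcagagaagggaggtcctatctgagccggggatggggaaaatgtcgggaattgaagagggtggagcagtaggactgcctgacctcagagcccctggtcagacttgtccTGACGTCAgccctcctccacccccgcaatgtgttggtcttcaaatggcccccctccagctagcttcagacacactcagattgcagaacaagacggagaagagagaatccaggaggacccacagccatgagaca
Ugdh: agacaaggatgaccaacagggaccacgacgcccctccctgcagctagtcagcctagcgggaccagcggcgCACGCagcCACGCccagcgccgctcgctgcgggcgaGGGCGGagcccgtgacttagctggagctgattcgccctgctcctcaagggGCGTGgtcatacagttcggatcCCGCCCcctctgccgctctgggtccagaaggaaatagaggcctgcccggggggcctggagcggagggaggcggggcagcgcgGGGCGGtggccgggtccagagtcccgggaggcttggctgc
Tnfaip6: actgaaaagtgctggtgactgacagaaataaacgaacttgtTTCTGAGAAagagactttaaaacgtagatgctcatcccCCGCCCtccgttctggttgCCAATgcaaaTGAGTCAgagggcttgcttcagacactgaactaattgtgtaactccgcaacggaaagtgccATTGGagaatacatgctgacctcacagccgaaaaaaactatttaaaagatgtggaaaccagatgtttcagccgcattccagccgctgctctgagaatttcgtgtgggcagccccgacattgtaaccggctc

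The motifs searched on both strands were the TATA box (TATAAA), the CCAAT box (CCAAT), the GC box (GGGCGG), the AP-1 site (TGANTCA), the core of the cAMP response element (TGACG), a STAT site (TTCNNNGAA), a heat shock element (GAANNTTC), the core of the aryl hydrocarbon receptor site (GCGTG) and the NF-kB site. The Has1 window held 2 overlapping cAMP response element cores in opposite orientation, the first beginning 83 bases before the start, and 1 CCAAT box at 203 bases before it. At least 1 such core was present in 20.8% of the 32851 promoter windows of the same length, and the CCAAT box in 37.4%. The share of windows with the overlapping pair was not counted. The Tnfaip6 window held 1 AP-1 site at 142 bases before the start, where 7.81% of all windows held one. It also held 1 STAT site (8.30% of windows), 2 CCAAT boxes and 1 GC box (35.7% of windows). The Ugdh window held 3 GC boxes and 3 aryl hydrocarbon receptor cores, a motif present in 32.4% of all windows. Its GC content was 71.0%, against 57.0% for Has1 and 47.0% for Tnfaip6, with a median of 52.7% over all windows. No motif of the set was found in all 3 windows. The TATA box (13.6% of all windows), the heat shock element (7.86%) and the NF-kB site (4.51%) had no match in these 3 windows. These matches describe the letters of the windows, and binding was not measured.

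All 4 members met the authors' limits, as did by construction 100% of the table. All 4 were higher in TMAO+IR than in IR, as were 81.9% of the genes in the table, which holds 1.17% of the about 12700 genes that the authors' false discovery rate (FDR) implies were tested. Group means differed by 2.28-fold for Ugdh to 2.64-fold for Has2. The FPKM of the groups did not overlap for any of the 4, which also held, with TMAO+IR higher, for 77.9% of the genes in the table. Since the table was chosen on this contrast, nothing is read from these counts. In bulk tissue, more cells of a type and more RNA per cell cannot be told apart.

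Has1, 1 of the 3 mammalian hyaluronan synthases, had 29.6, 34.8 and 15.5 FPKM in the TMAO+IR libraries and 9.25, 13.6 and 10.3 FPKM in the IR libraries, in order of replicate number. TMAO+IR replicate 3 lay far below the other TMAO+IR libraries and 1.14 times as high as the highest IR library, replicate 2. The means were 26.7 ± 10.0 FPKM in TMAO+IR and 11.0 ± 2.25 FPKM in IR (SD, n = 3 each), a ratio of 2.41. From counts, the log2 fold change was 1.27 with a standard error (SE) of 0.40. These values rest on 1142, 1571 and 676 counts in TMAO+IR and on 401, 625 and 485 counts in IR. At this depth the 95% exact Poisson intervals of TMAO+IR replicate 3 (30.1 to 35.0 CPM, counts scaled to the same recovered depth) and IR replicate 2 (26.2 to 30.7) overlapped at their ends, which by itself does not place the difference within counting error. Such intervals cover counting error only.

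Has2, the synthase that the developing mouse heart needs for its cardiac jelly and valve cushions, was far lower than Has1. It had 0.67, 0.57 and 0.53 FPKM in TMAO+IR and 0.16, 0.30 and 0.21 FPKM in IR, in order of replicate number. The lowest TMAO+IR library stood 1.77 times above the highest IR library, the widest gap of the 4 members. Means were 0.59 ± 0.072 FPKM in TMAO+IR and 0.22 ± 0.071 FPKM in IR (SD, n = 3 each), a ratio of 2.64, and the log2 fold change from counts was 1.39 (SE 0.35). Few fragments lie behind these values, with 52, 52 and 47 counts in TMAO+IR against 14, 28 and 20 in IR. The exact Poisson intervals of TMAO+IR replicates 2 and 3 began at 1.80 and 1.66 CPM, and that of IR replicate 2 reached 1.84 CPM, so these intervals overlapped.

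Ugdh, the source of UDP-glucuronate for hyaluronan and for other glycosaminoglycans and glucuronide conjugates, was the most abundant member. It had 46.9, 38.9 and 27.5 FPKM in the TMAO+IR libraries and 13.0, 19.9 and 16.8 FPKM in the IR libraries, in order of replicate number. All TMAO+IR libraries lay above all IR libraries, by at least 1.38 times. Means were 37.8 ± 9.76 FPKM in TMAO+IR and 16.6 ± 3.48 FPKM in IR (SD, n = 3 each), a ratio of 2.28, with a log2 fold change from counts of 1.19 (SE 0.41). With 1461 to 2201 counts in TMAO+IR and 684 to 1117 in IR, Ugdh had the highest counts of the 4, and the exact Poisson intervals of the groups did not overlap (66.6 CPM at the lower end in TMAO+IR, 53.9 at the upper end in IR).

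Tnfaip6, the hyaluronan-binding member, had 11.7, 13.7 and 7.41 FPKM in TMAO+IR and 3.87, 5.40 and 4.09 FPKM in IR, in order of replicate number. As for Has1, TMAO+IR replicate 3 was the lowest library of its group, at 1.37 times the highest IR library. Means were 10.9 ± 3.21 FPKM in TMAO+IR and 4.45 ± 0.827 FPKM in IR (SD, n = 3 each), a ratio of 2.45. The log2 fold change from 367, 504 and 264 counts in TMAO+IR and 137, 203 and 157 in IR was 1.29 (SE 0.36). The exact Poisson intervals of the groups stayed apart here, beginning at 11.2 CPM in TMAO+IR and ending at 10.6 in IR.

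**Figure D1:**
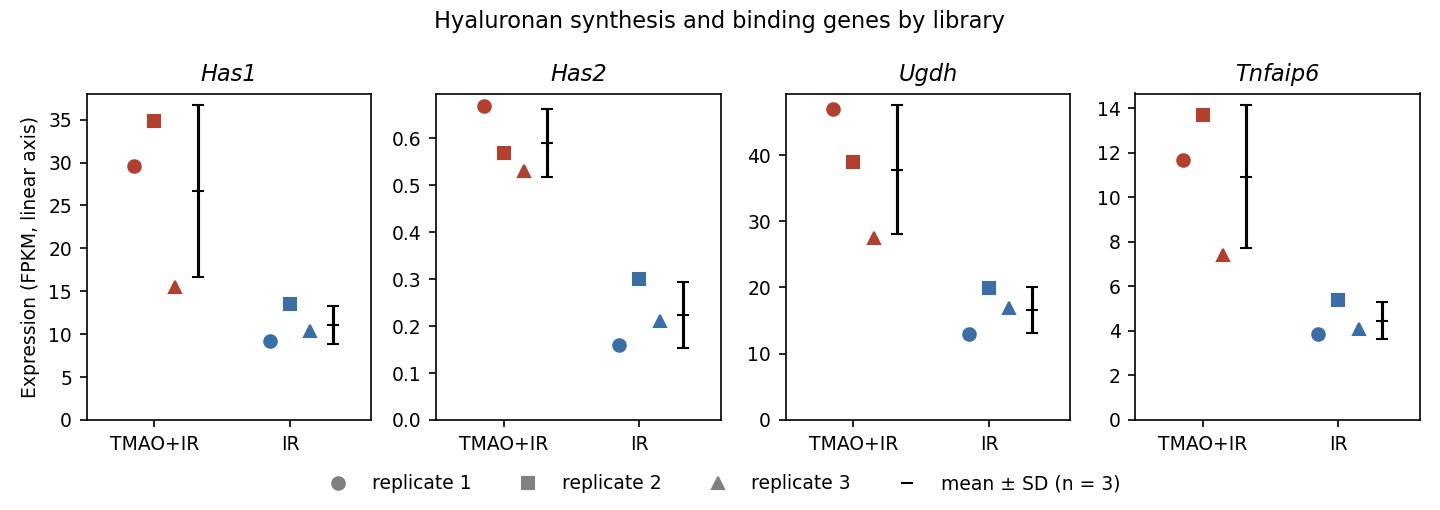
FPKM (vertical axes, linear and different for each gene) of the 4 genes in the 3 TMAO+IR libraries, on the left of each panel, and the 3 IR libraries, with the marker shape giving the replicate number and bars the mean ± SD. The groups do not overlap in any panel, and for Has1 the lowest TMAO+IR library (15.5 FPKM) lies closest to the highest IR library (13.6 FPKM).

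In the authors' deposited table, these genes entered the list with log2 fold changes of 1.27 (Has1), 1.40 (Has2), 1.19 (Ugdh) and 1.29 (Tnfaip6), which are log2 ratios of the mean FPKM. Their FDR there, again from the authors' deposited table, was lowest for Tnfaip6 (0.00167), followed by Ugdh (0.00208), Has1 (0.00415) and Has2 (0.0235). The list goes down to an absolute log2 fold change of 1.001 and up to an FDR of 0.0487, so Ugdh lay nearest to the first limit and Has2 to the second. Genes outside these limits were not analysed here. Among the 122 higher genes, ordered by log2 fold change in the authors' deposited table, Has2 was number 33, Tnfaip6 48, Has1 52 and Ugdh 69, with a median log2 fold change of 1.22 over the 122. By mean FPKM over both groups, Ugdh was number 21 and Has1 number 25 of the 149 genes, Tnfaip6 number 48 and Has2 number 136.

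**Figure D2:**
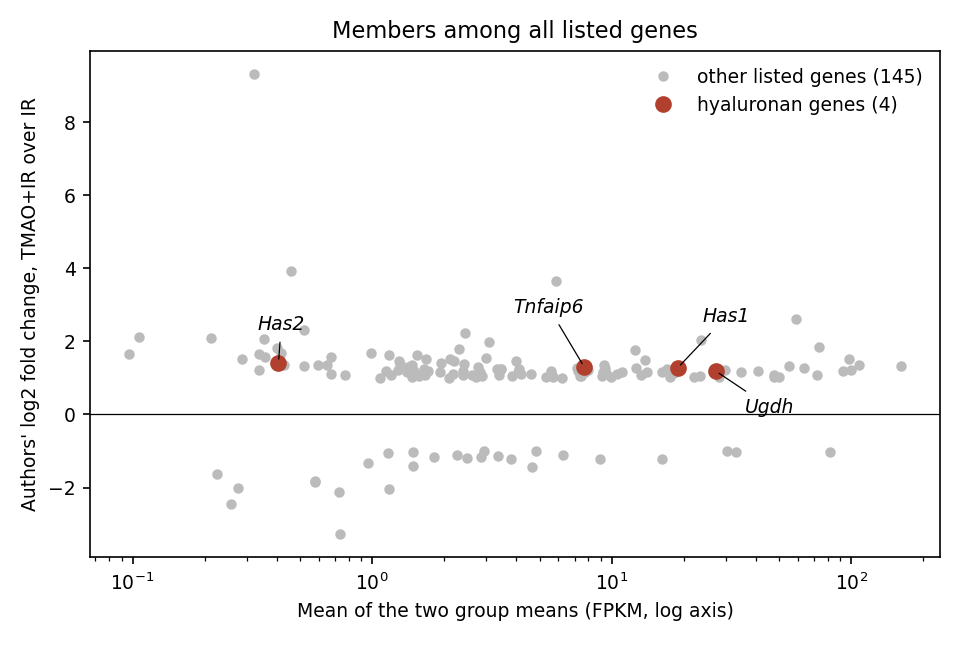
The authors' log2 fold change of TMAO+IR over IR (vertical axis) against the mean of the 2 group means in FPKM (horizontal axis, log scale) for the 149 listed genes, with the 4 hyaluronan genes in red. Has1, Ugdh and Tnfaip6 lie among the better expressed higher genes and Has2 among the least expressed, at 1.19 to 1.40 beside a median of 1.22 for the higher genes.

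Per length, the order of levels was the same in all 6 libraries, with Ugdh highest, then Has1, Tnfaip6 and Has2. Within a library, the FPKM of Ugdh was 1.12 to 1.78 times that of Has1. Across libraries these neighbours overlapped, at 27.5 to 46.9 FPKM for Ugdh and 15.5 to 34.8 FPKM for Has1 in TMAO+IR, and 13.0 to 19.9 and 9.25 to 13.6 FPKM in IR. The libraries of Has1 and Tnfaip6 did not overlap within either group, nor did those of Tnfaip6 and Has2. Has1 made up 97.6% ± 0.861 of the summed FPKM of Has1 and Has2 in TMAO+IR and 98.0% ± 0.234 in IR (SD, n = 3 each). That sum was 27.2 ± 10.0 FPKM in TMAO+IR and 11.3 ± 2.32 FPKM in IR. The lengths implied by the ratio of counts to FPKM, 2.10 kb for Has1, 4.24 kb for Has2, 2.55 kb for Ugdh and 1.71 kb for Tnfaip6, match the longest annotated coding transcripts of 2095, 4237, 2550 and 1710 bp. The scale of these lengths was set on annotated single-transcript genes, Tnfaip6 among them, so its match is in part built in.

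The proportions between the members overlapped between the groups in each case below. The FPKM of Has1 was 44.9 ± 15.9 times that of Has2 in TMAO+IR and 50.7 ± 6.44 times in IR (SD, n = 3 each). The FPKM of Tnfaip6 was 0.422 ± 0.0490 of that of Has1 in TMAO+IR and 0.404 ± 0.0123 in IR, with libraries from 0.393 to 0.478. The FPKM of Ugdh was 1.49 ± 0.338 times that of Has1 in TMAO+IR and 1.50 ± 0.118 times in IR. The log2 fold changes of the 4 genes spanned 1.19 to 1.39, a range narrower than the smallest SE among them, 0.35.

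The libraries were ordered alike in all 4 genes within the IR group, with replicate 1 lowest and replicate 2 highest. This order was found in 33 of the 149 genes of the table. The exact Poisson intervals of IR replicates 1 and 3 overlapped for Has1, Has2 and Tnfaip6, and stayed apart for Ugdh. Within TMAO+IR, replicate 3 was lowest for all 4 genes, as for 97 of the 122 higher genes. Replicate 2 was highest for Has1 and Tnfaip6, at 3.15 and 3.07 times the IR mean, and replicate 1 for Has2 and Ugdh, the value for Ugdh being 2.83 times. In TMAO+IR replicate 3 Has2 still stood at 2.37 times its IR mean, while Has1 was at 1.40, and Ugdh and Tnfaip6 at 1.66 times. Without TMAO+IR replicate 3 the log2 fold change of Has1 was 1.55 and that of Tnfaip6 1.51. Without TMAO+IR replicate 2 they were 1.03 and 1.10.

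**Figure D3:**
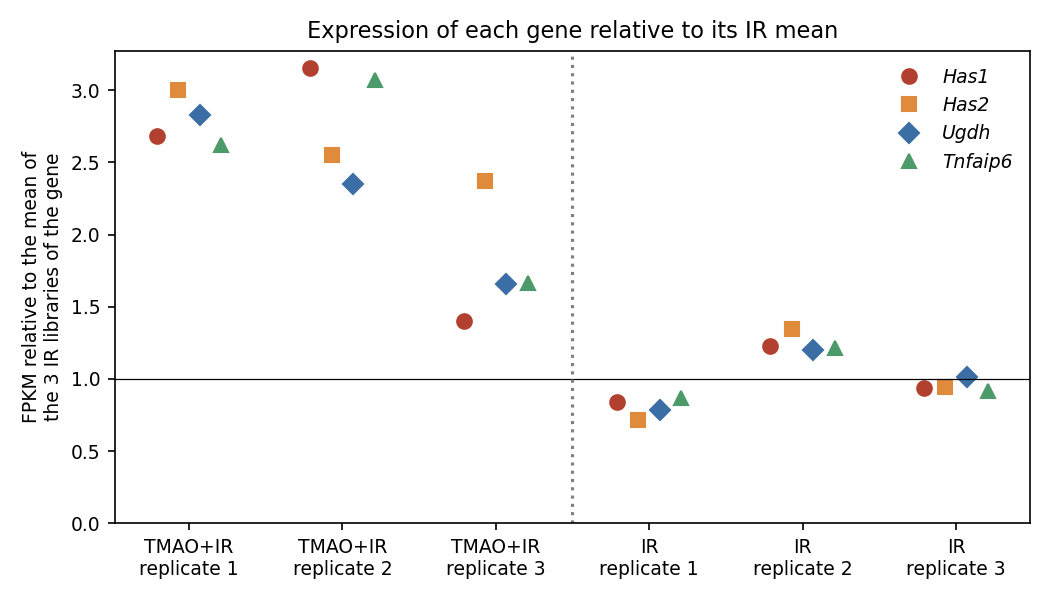
FPKM of each gene in each library divided by the mean FPKM of that gene in the 3 IR libraries (vertical axis, linear), with the TMAO+IR libraries left of the dotted line and a line at 1. In TMAO+IR replicate 3 Has1 is at 1.40 and Has2 at 2.37, while the IR libraries of all 4 genes lie between 0.72 and 1.34.

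The genes whose levels ran most closely with each member were ranked by Pearson correlation of log2 CPM over the 6 libraries. These correlations include the group difference that every listed gene shares, as well as library and depth, so high values are common. The median over the other 148 genes was 0.87 for Has1 and Ugdh, 0.88 for Has2 and 0.91 for Tnfaip6. For Has1 the closest were Lrrc32 (r = 0.997), Hsp90aa1 (0.997) and Ch25h (0.991), for Has2 Pmaip1 (0.986), Tchh (0.979) and Mpp7 (0.978). For Ugdh they were Ifi204 (0.995), Tchh (0.983) and Rell1 (0.980), and for Tnfaip6 Egr3 (0.998), Ifi203 (0.997) and A730049H05Rik (0.995). Among the members, Has1 and Tnfaip6 ran most closely (r = 0.990), Tnfaip6 being number 4 of 148 for Has1, and Has1 and Has2 least closely (r = 0.896, number 59). That last value lies near the medians of both genes over the other higher genes, and the low counts of Has2 limit its correlations.

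Of the 83 genes of hyaluronan metabolism and related sugar supply that were looked up, the 4 members were the only ones in the table, and all 4 were higher. They were 2 of 3 hyaluronan synthases, 1 of 20 genes of nucleotide sugar supply, and 1 of 18 genes of hyaluronan-binding matrix and plasma proteins. Over all of the about 12700 genes tested, the share in the table was 1.17%, so a count of 0 or 1 in lists of these sizes is near the background. The lists hold the members and were chosen with earlier results of these data known, so nothing is read from these counts, the synthases included. None of 8 receptor genes, among them Cd44 and Lyve1, none of 12 breakdown genes, among them Hyal1, Hyal2 and Cemip, and none of 22 other genes of glycosaminoglycan synthesis, which share UDP-glucuronate with the synthases, was in the table. The 79 genes that were not in the table, Has3 included, were not analysed here, and their absence does not show equal levels. In the authors' annotation columns, Has1 and Has2 were the only genes of the table under hyaluronan synthase activity and hyaluronan biosynthetic process, and Tnfaip6 the only one under hyaluronic acid binding. Has2 and Tnfaip6 shared positive regulation of cell migration, a term carried by 7 genes of the table.

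The listed markers of other cell types were, like the members, higher in TMAO+IR, as were 81.9% of the genes in the table. None of 14 fibroblast markers and none of 12 markers of mesothelium and epicardium was in the table. The table holds 1.17% of the about 12700 genes tested, so a count of 0 in lists of these sizes is near the background. Markers that were not in the table were not analysed here, and their absence does not show equal levels. The 2 listed of 12 neutrophil markers, Mmp8 and Slfn4, summed to 12.2 to 14.6 FPKM in TMAO+IR and 4.40 to 8.06 FPKM in IR. The 2 listed of 14 monocyte and macrophage markers, Ccr2 and Chil3, summed to 2.77 to 6.11 FPKM in TMAO+IR and 1.06 to 1.83 FPKM in IR. The listed endothelial marker of 11, Ackr1, had 1.83 to 2.58 FPKM in TMAO+IR and 0.80 to 0.88 FPKM in IR. None of these listed markers was at 0 in any library, and their part in the values of the hyaluronan genes was not tested.

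On GRCm38 in GENCODE release M21, the members lie on different chromosomes and are annotated as protein-coding. Has1 (ENSMUSG00000003665) spans 17843323 to 17855205 on the minus strand of chromosome 17, with 5 exons in its coding transcript. Has2 (ENSMUSG00000022367) spans 56665627 to 56694539 on the minus strand of chromosome 15, with 4 exons. Ugdh (ENSMUSG00000029201) spans 65413221 to 65435949 on the minus strand of chromosome 5, with 12 exons in its longest coding transcript, and Tnfaip6 (ENSMUSG00000053475) spans 52038009 to 52056686 on the plus strand of chromosome 2, with 6 exons. The antisense gene Has2os shares 182 of the 4237 exonic bases of Has2, and the same-strand gene Gm43552 shares 158 of the 6752 exonic bases of Ugdh. Strand-specific counting is not described in the sources used here, and without it reads from the bases shared with Has2os cannot be assigned to one gene. Reads from the bases that Ugdh shares with Gm43552 cannot be assigned by strand in any case.

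**Figure D4:**
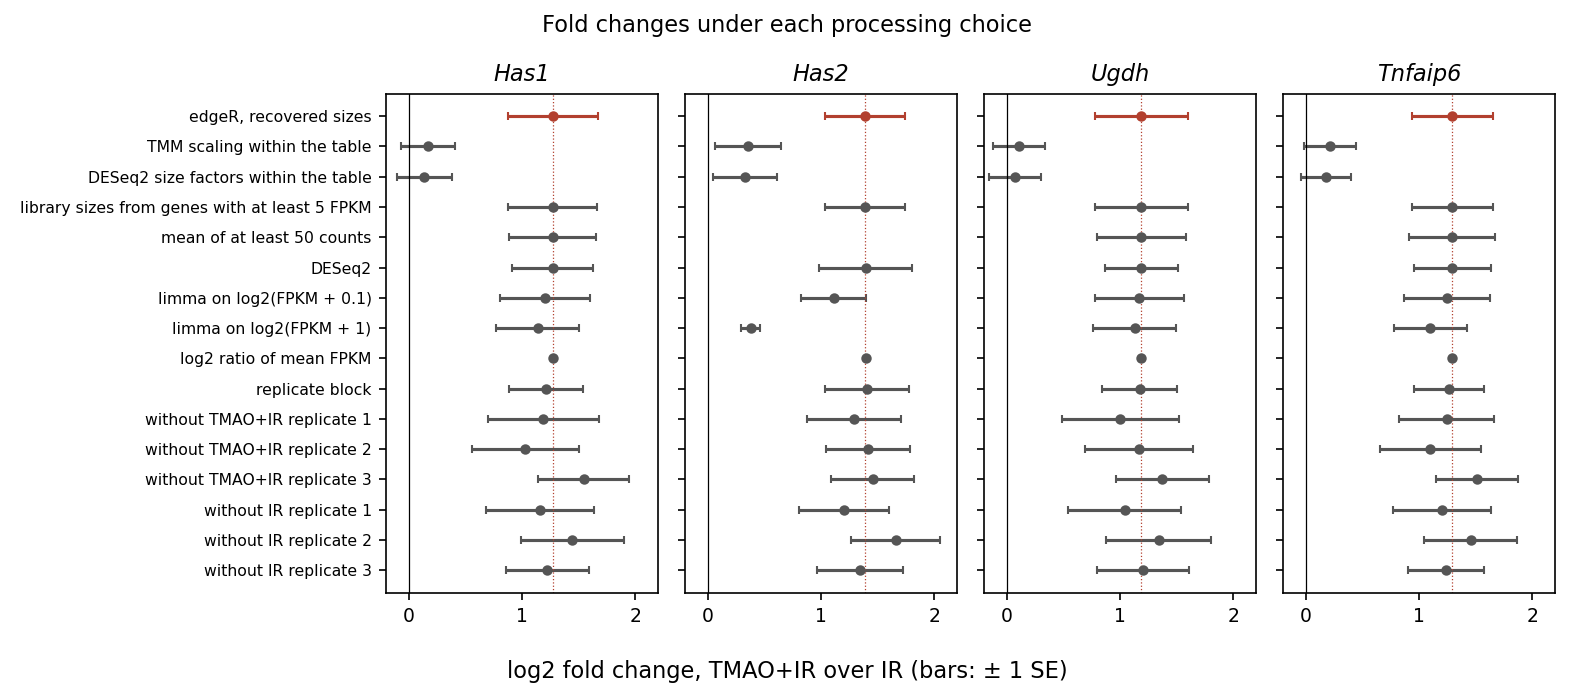
log2 fold change of TMAO+IR over IR (horizontal axis, bars ± 1 SE where one was computed) for each gene under each processing choice, with the values from edgeR and recovered library sizes in red. Scaling within the list of changed genes moves all 4 genes towards 0, to between 0.07 and 0.36, while leaving out single libraries keeps them between 1.003 and 1.66.

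The fold changes of all 4 genes stayed positive under the alternatives plotted. Since the genes were listed for this contrast, an unchanged sign is no support for it. With TMM scaling within the table, the log2 fold changes were 0.17 for Has1 (SE 0.24) and 0.36 for Has2 (SE 0.29). They were 0.11 for Ugdh (SE 0.23) and 0.21 for Tnfaip6 (SE 0.23), so only that of Has2 exceeded its SE. That scaling centres a list made mostly of higher genes and shifted the median of all 149 genes by -1.03.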

How the data were processed

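Poly(A)-selected RNA from the reperfused heart region was sequenced in 3 TMAO+IR and 3 IR libraries, grouped by sample title. The deposited columns named T-IR were matched to TMAO+IR, the only other group. Animals are not named in the labels, so the spread between libraries may be technical. The GRCm38 build and, without roles, the tools edgeR, DESeq2, StringTie 1.3.1, HISAT2, Bowtie2 2.2.8 and fastp 0.18.0 are named per the submitters' processing notes. The authors deposited whole-number counts without normalization, and FPKM to 2 decimals, for 149 genes. The deposited log2 fold change is the log2 ratio of mean FPKM. The deposited p-value and FDR come from the authors' test, whose tool the sources used here do not give.

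Library sizes came from counts divided by FPKM, over genes of at least 1 FPKM in every library, with single-transcript genes setting the scale. CPM are counts scaled to these sizes. Counts were fitted with edgeR 4.0.16 (quasi-likelihood, R 4.3.3) over all 149 genes with these sizes and no filter. The SE was derived from F. The fit was tried on simulated data with mostly unchanged genes, which checked the median fold changes and not the SE. No p-value of its own is given, because the table was selected on this contrast. DESeq2 1.42.0 and limma 3.58.1 were alternatives.

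The named genes are the 4 members, any listed gene of the hyaluronan lists, and the 3 genes closest to each member by correlation. The members, gene lists, marker lists and motifs were chosen with earlier results of these data known.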

Additional observations from a re-analysis of the deposited data

How the results depend on the processing

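Under 59 recomputations no fold change reversed, 50 moved by less than the replicate SD and 9 by more. The genes were listed for this contrast, so an unchanged sign is no support for it. Scaling within the table gave log2 fold changes of 0.17 (Has1), 0.36 (Has2), 0.11 (Ugdh) and 0.21 (Tnfaip6) with TMM. With DESeq2 size factors they were 0.14, 0.33, 0.071 and 0.18, in the same gene order. Both centre a list chosen for its change, and shifted its median by -1.03 and -1.06. Limma on log2(FPKM + 1) gave 0.38 for Has2, whose FPKM are below the pseudocount. Leaving out 1 library gave 1.03 to 1.55 for Has1, 1.20 to 1.66 for Has2, 1.003 to 1.37 for Ugdh and 1.10 to 1.51 for Tnfaip6. The replicate block gave 1.21, 1.40, 1.17 and 1.26 in the same gene order, changing no direction. Deviations from the group means correlated at -0.32, 0.34 and -0.08 between libraries of the same number (117 genes), so the numbers were not taken as pairs. Of the TMAO+IR libraries, only replicate 2 correlated best with its own number in IR. With at least 50 counts on average Has2 drops out. Depth limits Has2 most, with 62 counts over the IR libraries.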
